A study of Homo sapiens with 12 samples.

Results

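Star-strand miRNAs were followed in the human osteosarcoma line Saos-2 and in its CD99 transfectants. A miRNA precursor is a hairpin from which Dicer cuts a short duplex. The strand that is loaded into Argonaute is called the guide, and the other strand, marked by an asterisk in the older nomenclature, is the star or passenger strand. A star strand has its own seed, the bases 2 to 8 that pair with targets, and therefore a target set of its own when it is loaded. Both strands of a hairpin share its transcription, so that unequal levels of strands from that hairpin alone arise in later steps such as loading and stability. This does not hold for a guide that is also made from another hairpin.

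The array named 851 human miRNAs, 171 of them with an asterisk. The 162 star strands described here were taken by name, leaving out miR-191*, miR-425*, miR-1226* and the 6 star names from miR-512 to miR-527. For 135 of them the guide was the same name without the asterisk, for 25 it was found once the number of the precursor was dropped, and for miR-106a* and miR-129* no guide of that name stood on the array. Guides were used for comparison only, and no level of a star strand was set against that of its guide, since they were read by different probes.

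Each of 12 samples was hybridised to its own array in a single colour, with 2 samples in each of 6 groups. Sa/CD99 cells are Saos-2 cells stably transfected with CD99, and their 2 arrays per day were the clones Sa/CD99wt22 and Sa/CD99wt36, each of them 1 cell line. The controls were 2 numbered samples per day of untransfected parental Saos-2, not a vector control, and the labels do not say whether these were separate cultures, so that p-values measure the spread between these samples. Samples were collected at days 0, 7 and 14 of osteogenic differentiation. Day 0 cells had spent no time in osteogenic medium and those of days 7 and 14 were kept in it, so that a comparison with day 0 also compares the medium. CD99 itself is not measured by a miRNA array. Of 9 miRNAs usual in mesenchymal cells 8 were detected on all 12 arrays, miR-143 being the exception, while none of the 7 epithelial and none of the 6 blood markers was detected on any array. The endothelial and the liver marker were undetected as well, and miR-9 and miR-128 of 3 neural markers and miR-133b of 4 muscle markers were detected on some arrays.

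The deposited records give the arrays conflicting sample names, and every statement on a day or a cell type depends on this. Each column of the deposited table of normalized log2 values had the same detected and undetected miRNAs as exactly 1 scanner array, for 847 of 847 shared names, and in 0 of 12 cases was that array filed under the same sample. Groups below follow the column titles of the table. By these titles all 4 day 0 arrays and both Saos-2 day 7 arrays lay on slide 1, and all 4 day 14 arrays and both Sa/CD99 day 7 arrays on slide 2, so that day 14 against day 0 and slide cannot be told apart, and neither can cell type and slide at day 7. When the scanner arrays were used as filed, limma called 0 of 18 tested star strands between day 14 and day 0 in each cell type, as it called none of all 211 tested miRNAs (0%). At an unadjusted p of 0.05 it was 1 of 18 in Sa/CD99 (4.27% of all) and 0 in Saos-2 (2.37%).

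The arrays also differed in total signal, from 8177 to 11130 units on the day 0 arrays, from 9567 to 22544 at day 7 and from 14822 to 25558 at day 14. In the table, which had been quantile normalized with the undetected miRNAs included, the lowest detected log2 value was 2.39 on the array with 133 detected human miRNAs and -3.09 on that with 229. An undetected miRNA was set to the lowest detected value of its array. Each difference is therefore given on 2 scales, the deposited log2 value and the scaled signal, which is the total gene signal of the matching scanner array scaled by the 75th percentile of the miRNAs detected on all arrays. Between day 0 and day 14 the median of all tested miRNAs moved by -1.51 in Sa/CD99 and -1.27 in Saos-2 on the deposited scale, and by 0.09 and -0.02 on the scaled one.

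The sequences of the star strands on which the results turn are shown 5′ to 3′ with the seed in capitals, first 4 strands that were higher at day 14 or appeared there and then 4 that were lower. They were taken from RefSeq (GRCh38.p14), where 29 of the 32 detected star strands were found through their present arm names. miR-150*, which was also higher at day 14, was not among those found, so its sequence and its G and C content are not given. The array files hold names and no sequences.
miR-135a*: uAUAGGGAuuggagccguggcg
miR-1914*: gGAGGGGUcccgcacugggagg
miR-99b*: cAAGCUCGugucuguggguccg
miR-149*: aGGGAGGGacgggggcugugc
miR-129*: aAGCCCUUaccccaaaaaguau
miR-30a*: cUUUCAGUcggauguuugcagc
miR-29b-1*: gCUGGUUUcauauggugguuuaga
miR-181a-2*: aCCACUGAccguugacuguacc
The first 4 come from MIR135A1 at chr3:52294232-52294253 (minus strand, within the span of GLYCTK), MIR1914 at chr20:63941474-63941495 (minus strand, within UCKL1), MIR99B at chr19:51692656-51692677 (plus strand, within SPACA6) and MIR149 at chr2:240456056-240456076 (plus strand, within GPC1, which encodes a cell surface proteoglycan). The others come from MIR129-1 at chr7:128207920-128207941 (plus strand), MIR30A at chr6:71403554-71403575 (minus strand), MIR29B1 at chr7:130877507-130877530 (minus strand) and MIR181A2 at chr9:124692518-124692539 (plus strand, within MIR181A2HG and NR6A1). No seed is shared among these 8. Among the 29 star strands with a sequence, 2 pairs shared a seed, miR-23a* with miR-23b* and miR-30c-1* with miR-30c-2*.
miR-23a*: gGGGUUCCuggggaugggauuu
miR-23b*: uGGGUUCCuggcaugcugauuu
miR-30c-1*: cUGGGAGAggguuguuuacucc
miR-30c-2*: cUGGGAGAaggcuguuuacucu
The 29 sequences were 21 to 24 bases long and held 31.8% to 77.3% G and C, with a median of 54.5%. The G and C content was 59.1% for miR-135a*, 77.3% for miR-1914*, 63.6% for miR-99b* and 76.2% for miR-149*, and it was 40.9% for miR-129*, 50% for miR-30a*, 41.7% for miR-29b-1* and 54.5% for miR-181a-2*. This is a description of 8 strands chosen with their values known and was not tested.

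Most star strands gave no signal. Of the 162, 130 (80.25%) were detected on no array and 32 (19.75%) on at least 1, compared with 227 of the 680 names without an asterisk. The number detected per array ran from 6 to 24, with 6 and 8 in Sa/CD99 at day 0, 12 and 11 at day 7 and 15 and 22 at day 14. In Saos-2 it was 7 and 13 at day 0, 8 and 24 at day 7 and 15 and 14 at day 14. In Sa/CD99 no 2 days overlapped, while in Saos-2 the day 7 samples overlapped both other days. The sample with 24 detected star strands had a total signal of 22544, and the other Saos-2 day 7 sample, with 8, had 9567. The part of total signal in the number of detected star strands was not tested. Of the 135 guides of the same name, 48 to 66 were detected per array, and their days overlapped in Sa/CD99.

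**Figure D1:**
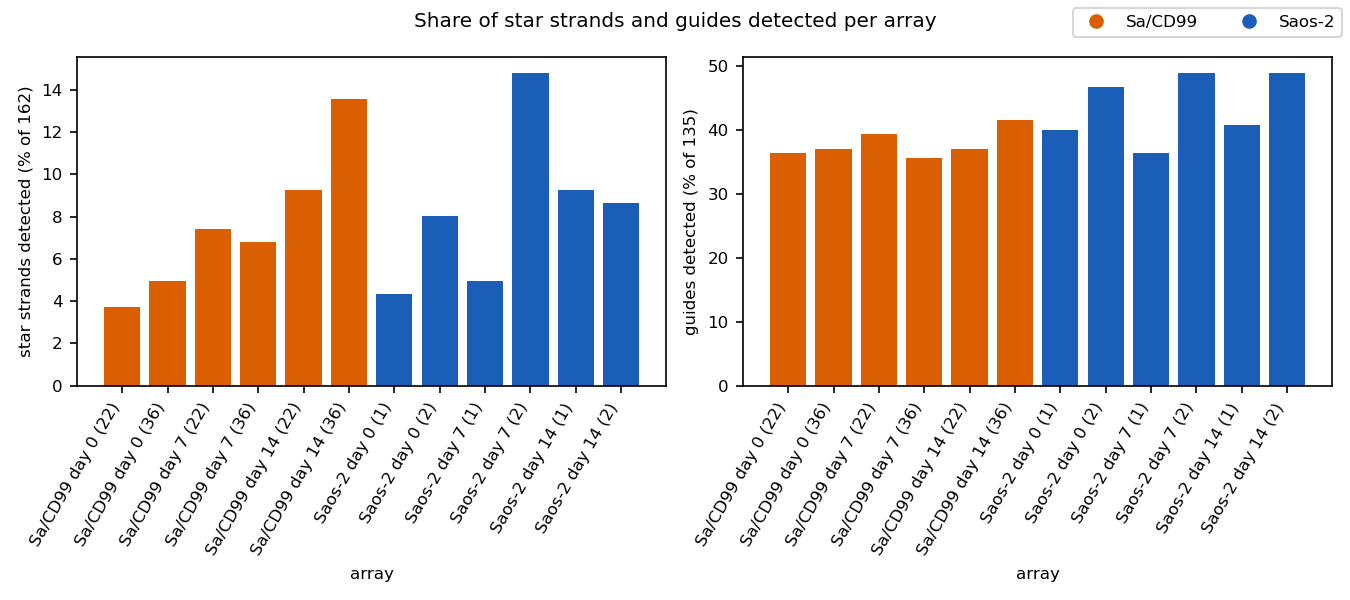
Share of the 162 star strands (left) and of their 135 guides of the same name (right) detected on each array, in percent, with 1 bar per array coloured by cell type. The star strands range from 3.70% to 14.8% and the guides from 35.6% to 48.9%.

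In the pairs of the same name an undetected star beside a detected guide was the most frequent pattern, closely followed by pairs with neither strand detected. Both strands were detected on at least 1 array in 16 of 135 pairs, only the guide in 57, neither in 55 and only the star in 7. Of 38 guides detected on all 12 arrays, 26 had a star strand that was detected on none. For miR-21, a miRNA raised in many tumours, miR-221 and miR-222 none of the 3 star strands was detected, although all 3 guides were detected on some array and 2 of them on all 12. Likewise, 1 of 9 star strands of the let-7 and miR-98 family was detected, let-7e* on 1 array, while all 8 matched guides were on all 12. For the miR-17 cluster and its paralogs 1 of 16 was detected, miR-106b* on 2 arrays. In the 14q32 imprinted cluster none of 11 star strands and none of 11 guides was detected. Over the 16 families listed, 17 of 87 star strands were detected and 6 families had none.

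The 7 pairs in which only the star was detected were miR-135a*, miR-150*, miR-1914*, miR-33b*, miR-34b*, miR-373* and miR-629*. On at least 6 arrays these were miR-1914* and miR-33b* with 10 each and miR-135a* and miR-150* with 8 each. The guide miR-150 is known as a lymphocyte miRNA and was detected on no array. miR-29b-1* was detected on all 12 arrays, while miR-29b, a regulator of collagens and other matrix genes, was detected on 1. A probe below background gives a bound and not an absence, so that these pairs do not show which strand was more abundant.

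**Figure D2:**
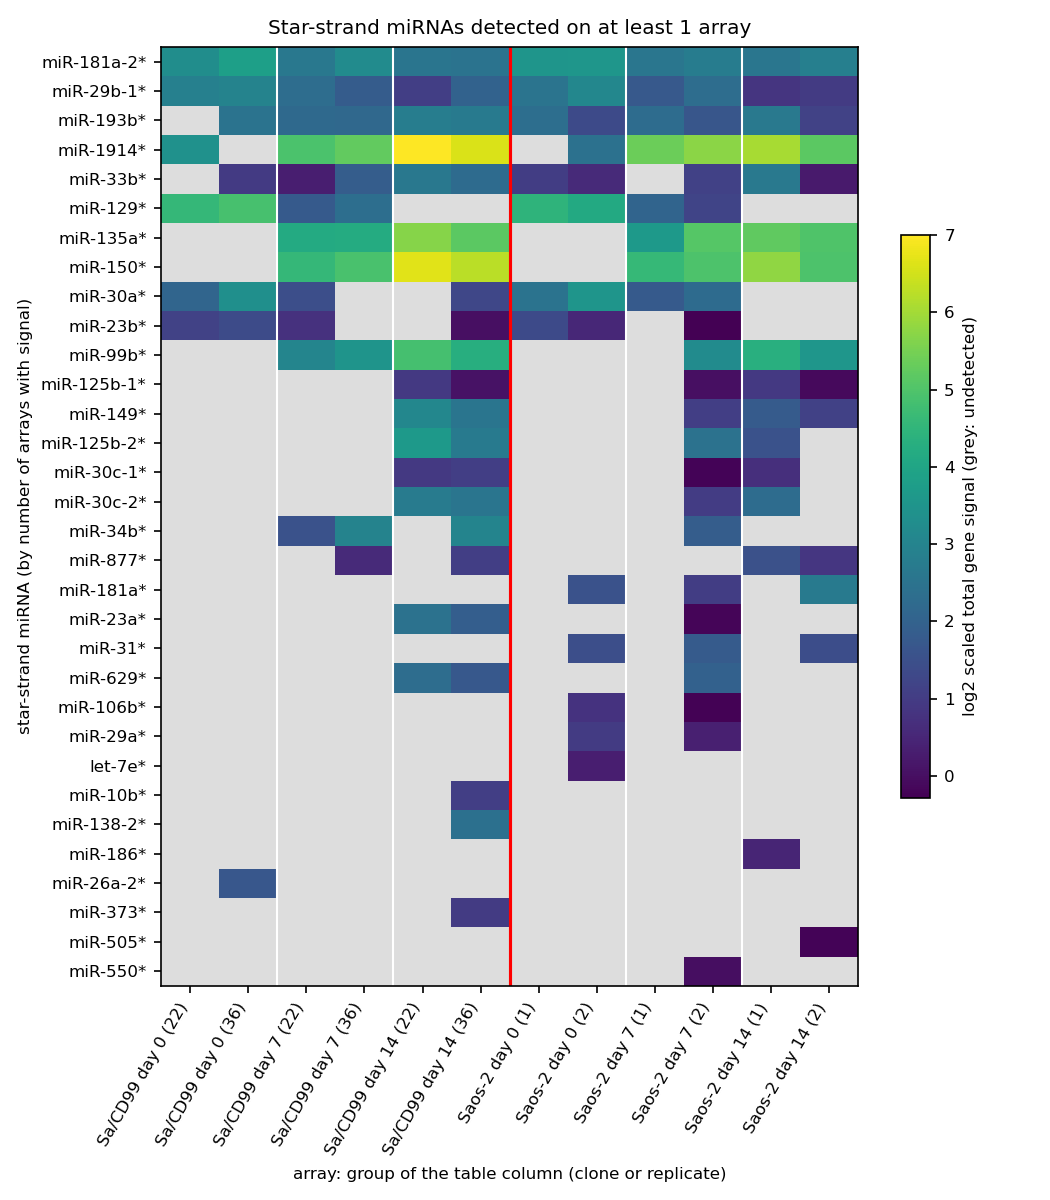
Scaled signal on a log2 scale of the 32 star strands detected on at least 1 array (rows, ordered by the number of arrays) on the 12 arrays (columns), with undetected values in grey and a red line between Sa/CD99 and Saos-2. miR-150*, miR-135a* and miR-99b* are grey on all 4 day 0 arrays, and miR-129* is grey on all 4 day 14 arrays.

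Only miR-181a-2* and miR-29b-1* were detected on all 12 arrays, 9 others on 7 to 11, 13 on 2 to 5 and 8 on exactly 1. For a test with limma a miRNA had to be detected in both samples of some group, which left 20 star strands among 219 miRNAs. Since a filter of this kind keeps a strand through the group where it is high, counts over the 20 are not counts over the 162. In 7 of the 20 a single group let the strand pass. This group was Sa/CD99 day 14 for miR-125b-2*, miR-23a*, miR-30c-1*, miR-30c-2* and miR-629*, Sa/CD99 day 7 for miR-34b* and Saos-2 day 14 for miR-877*. A higher value of these strands in that group followed from the filter, so such differences are given as descriptions without a p, and calls among them are marked where they are counted. miR-149* and miR-125b-1* passed through both day 14 groups alone, and miR-23b* through both day 0 groups alone, and their differences between the days are treated likewise. miR-150*, miR-135a* and miR-1914* passed through the 4 groups of days 7 and 14 and miR-129* through the 4 of days 0 and 7, so that each also passed through groups outside a comparison of day 14 with day 0.

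The first question was whether star strands change during differentiation. In bulk RNA, fewer cells with a miRNA and less of it per cell cannot be told apart. On the deposited scale 14 of the 20 tested passed an adjusted p of 0.05 between day 14 and day 0 in Sa/CD99, where 71.7% of all tested miRNAs did, and 18 in Saos-2, where 62.1% did. In Sa/CD99 3 were higher and 11 lower, against 18.3% and 53.4% of all tested miRNAs. In Saos-2 4 were higher and 14 lower, against 18.3% and 43.8%. Many of these calls carry no direction, because the lower limit of the day 0 arrays stands above detected values of day 14. This held for 6 of the 14 and 9 of the 18, and 3 of the 9 were undetected on all 4 arrays compared. Of the remaining calls 3 were higher and 5 lower in Sa/CD99, and 4 were higher and 5 lower in Saos-2, with miR-23b*, kept by the filter through the day 0 groups, among the 5 lower in each. On the scaled signal 12 star strands were called in Sa/CD99 (49.3% of all tested miRNAs), 8 higher (35.5%) and 4 lower (13.8%), the 8 including miR-149*, miR-125b-2*, miR-30c-2* and miR-23a*, which had passed the filter through day 14 groups alone. In Saos-2 it was 7 (35.9%), 4 higher (26.7%) and 3 lower (9.22%). The median difference of the 20 star strands was -2.62 in Sa/CD99 and -2.87 in Saos-2 on the deposited scale, and 1.03 and -0.15 on the scaled one. Without the Saos-2 day 7 replicate 1 array 25 star strands passed the filter and 23 of them were called in Sa/CD99 (80.1% of all tested miRNAs). Without the Saos-2 day 0 replicate 1 array 11 of 25 were called in Saos-2 (37.3%). These counts were not split by the limit of detection.

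The strands called in the same direction on both scales, with that direction not set by the limit, were 7 in each cell type, beside 31.3% of all tested miRNAs in Sa/CD99 and 26.7% in Saos-2. They were 3 higher (17.5%) and 4 lower (13.8%) in Sa/CD99, and 4 higher (17.5%) and 3 lower (9.22%) in Saos-2. miR-135a*, miR-150* and miR-1914* were higher at day 14 in both cell types and miR-99b* in Saos-2. miR-129*, miR-29b-1* and miR-30a* were lower in both cell types and miR-181a-2* in Sa/CD99.

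The size of these differences depended on how the arrays were processed, and a fold given as "at least" holds for the scale it is given on. In the scanner arrays normalized anew from spot signals under the table's labels, all of them kept their sign and an adjusted p of at most 0.0245, but were far smaller. In Sa/CD99 and Saos-2 the log2 difference of day 14 from day 0 was then 1.01 and 0.70 for miR-150*, 0.54 and 0.49 for miR-135a*, and 1.12 and 0.65 for miR-1914*. It was -0.33 and -0.75 for miR-129*, -0.089 and -0.18 for miR-29b-1*, and -0.20 and -0.20 for miR-30a*. For miR-99b* in Saos-2 it was 0.26 and for miR-181a-2* in Sa/CD99 -0.21. An offset of 50 units had been added to the spot signals there, which brings the folds of dim spots closer to 1, and its part in the smaller differences was not tested. Without the background correction miR-150* stood at 1.47 and 1.07 and miR-129* at -0.55 and -1.09.

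miR-150* was undetected on all 4 day 0 arrays. Its deposited log2 values were 4.55 and 5.00 at day 7 and 6.05 and 5.79 at day 14 in Sa/CD99, and 4.52 and 4.63 followed by 5.59 and 4.85 in Saos-2. In each cell type the day 14 values lay above those of day 7, and no day 0 array gave a signal. On the deposited scale it was at least 13.2-fold higher at day 14 than at day 0 in Sa/CD99 (limma, adjusted p = 0.000263) and at least 14.4-fold in Saos-2 (adjusted p = 0.00024). On the scaled signal the bounds were 45.1-fold and 26.1-fold. miR-135a*, the star of a miRNA known to target Smad5, followed the same order. Its log2 values were 4.04 and 4.10 at day 7 and 5.09 and 4.70 at day 14 in Sa/CD99, and 3.70 and 4.75 followed by 4.70 and 4.94 in Saos-2. The days 7 and 14 overlapped in Saos-2 and not in Sa/CD99. Day 14 was on the deposited scale at least 6.49-fold above day 0 in Sa/CD99 (adjusted p = 0.0018) and at least 10.9-fold in Saos-2 (adjusted p = 0.00063), with bounds of 21.97-fold and 21.4-fold on the scaled signal.

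miR-1914* was detected on 1 of 2 day 0 arrays of each cell type, at 3.93 in Sa/CD99 and 3.09 in Saos-2. It reached 4.94 and 5.21 at day 7 and 6.47 and 6.22 at day 14 in Sa/CD99, and 5.34 and 5.54 followed by 5.75 and 5.09 in Saos-2. All later values lay above those of day 0, while days 7 and 14 overlapped in Saos-2. With the undetected sample at its limit, the difference from day 0 was 3.38 on the log2 scale in Sa/CD99 (SE 0.64, adjusted p = 0.00143) and 2.87 in Saos-2 (SE 0.64, adjusted p = 0.00447). It was 4.61 (SE 0.71) and 3.87 (SE 0.71) on the scaled signal. miR-99b*, whose precursor is made together with let-7e and miR-125a, was undetected at day 0 and on 1 Saos-2 day 7 array. Its values were 2.98 and 3.24 at day 7 and 4.20 and 3.65 at day 14 in Sa/CD99, and 2.73 on the other day 7 array and 3.70 and 3.16 at day 14 in Saos-2. Day 14 was at least 4.16-fold above day 0 in Saos-2 (adjusted p = 0.0335), a call that was lost without any of 5 arrays, both of Sa/CD99 day 0, both of Saos-2 day 14 and Saos-2 day 0 replicate 2 (adjusted p from 0.0505 to 0.196). In Sa/CD99 the bound was 3.31-fold and missed the threshold (adjusted p = 0.0553), and the bounds on the scaled signal were 12.1-fold and 9.47-fold (adjusted p = 0.000907 and 0.00224).

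miR-129* ran the other way. Its log2 values were 5.00 and 5.41 at day 0 and 0.84 and 1.05 at day 7 in Sa/CD99, and 4.97 and 4.75 followed by 1.39 and -1.36 in Saos-2. It was undetected on all 4 day 14 arrays, and no 2 days overlapped. By the deposited values it was at least 157-fold lower at day 14 than at day 0 in Sa/CD99 (adjusted p = 6.19e-05) and at least 121-fold lower in Saos-2 (adjusted p = 8.18e-05). These bounds were 19.3-fold and 18.2-fold on the scaled signal, which leaves out the shift of the table. The other arm of its precursors, miR-129-5p, was detected on all 4 day 0 arrays, on 1 array of each cell type at day 7 and on none at day 14. Its difference between day 14 and day 0 was -3.55 (SE 0.53) in Sa/CD99 and -3.71 (SE 0.53) in Saos-2 on the log2 scaled signal, both against the limit of the day 14 arrays.

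**Figure D3:**
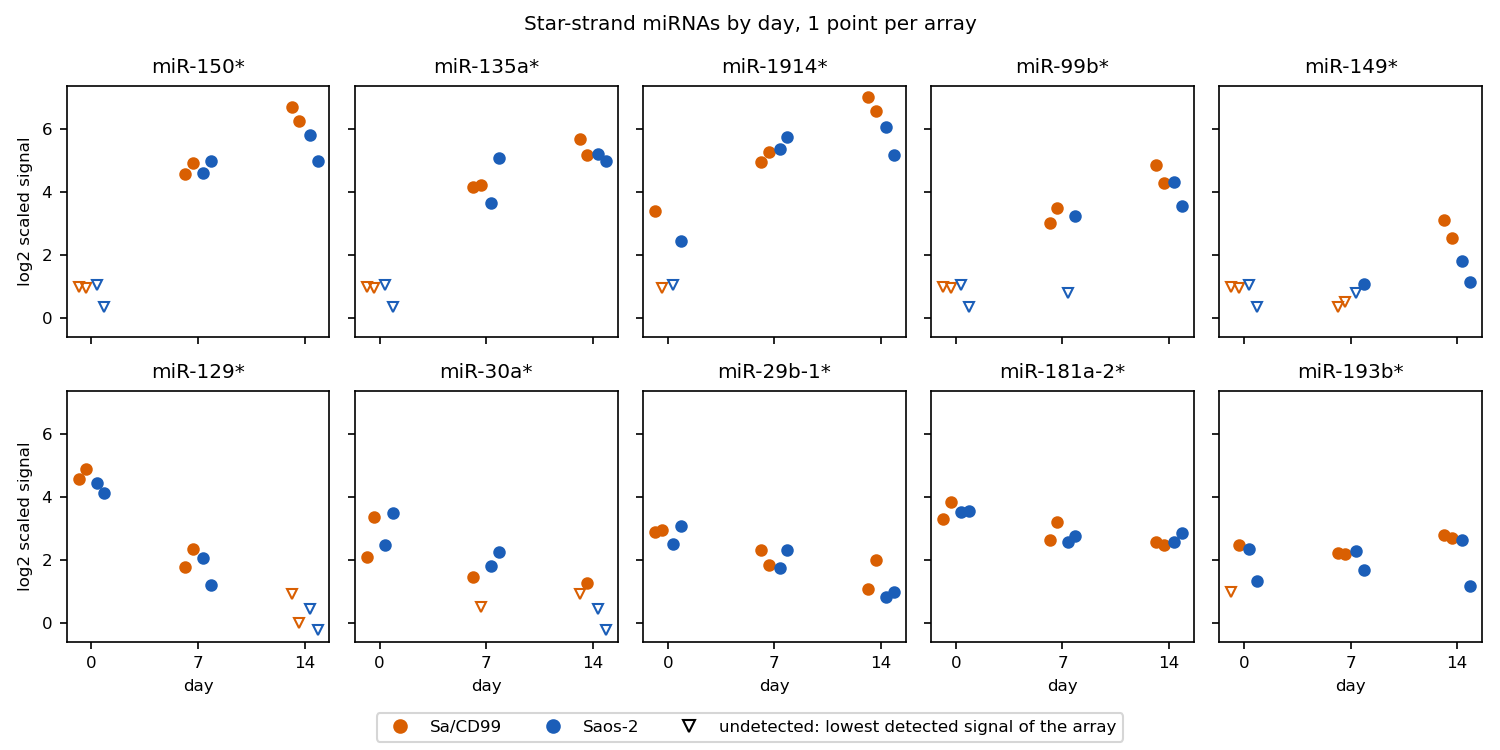
Scaled signal on a log2 scale (vertical axis) of 10 star strands at days 0, 7 and 14 (horizontal axis), 1 point per array, Sa/CD99 in orange and Saos-2 in blue; open triangles mark undetected values at the lowest detected signal of that array. miR-150* and miR-135a* are open at day 0 and filled afterwards, miR-129* is open at day 14, and miR-193b* stays within 1 range on all days.

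miR-30a* and miR-29b-1* were lower at day 14 by both scales. For miR-30a* the log2 values were 2.94 and 4.04 at day 0, 0.12 on 1 array at day 7 and -1.88 on 1 array at day 14 in Sa/CD99, and 3.27 and 4.07, 0.84 and 0.37 and none in Saos-2. The difference of its log2 scaled signal between day 14 and day 0 was -1.64 in Sa/CD99 (SE 0.54, adjusted p = 0.0268). In Saos-2 it was at least 7.42-fold lower on that scale (adjusted p = 0.00121). On the deposited scale the difference was -5.24 in Sa/CD99, with 1 day 14 array at its limit, and the strand was at least 53.1-fold lower in Saos-2. miR-29b-1* was detected on every array, at 3.65 and 3.70, then 1.42 and 0.12, then -1.32 and -0.98 in Sa/CD99 and at 3.37 and 3.70, then 0.78 and 0.41, then -1.27 and -1.27 in Saos-2. No 2 days overlapped in these values in either cell type, while on the scaled signal days 7 and 14 overlapped in Sa/CD99, at 4.97 and 3.56 and at 2.11 and 4.01. The difference of day 14 from day 0 was -4.82 (SE 0.49) and -4.81 (SE 0.49) on the deposited scale, and -1.38 (SE 0.42, adjusted p = 0.0178) and -1.90 (SE 0.42, adjusted p = 0.00378) on the scaled one. The difference was smaller once arrays were scaled by shared miRNAs.

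miR-181a-2* and miR-23b* rested more on the scale. miR-181a-2*, detected on every array, fell by 4.28 in Sa/CD99 and fell by 2.74 in Saos-2 on the deposited log2 scale (SE 0.59 for each). On the scaled signal the differences were -1.04 (SE 0.36, adjusted p = 0.0323) and -0.81 (SE 0.36, adjusted p = 0.106). miR-23b*, kept by the filter through the day 0 groups, is given as a description. In Sa/CD99 its difference was -4.43 on the deposited and -0.81 on the scaled log2 scale, with 1 day 14 array at its limit. In Saos-2 it was undetected on both day 14 arrays, with bounds of 12.8-fold lower on the deposited scale and 1.79-fold on the scaled one. For miR-193b*, detected on 11 arrays, the sign turned from -2.17 to 1.01 in Sa/CD99 and from -2.40 to 0.065 in Saos-2, and neither scaled difference passed the threshold.

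Other star strands appeared on the day 14 arrays and on the Saos-2 day 7 array of high total signal. miR-149*, miR-125b-1*, miR-125b-2*, miR-30c-1* and miR-30c-2* were undetected on all day 0 arrays and on both Sa/CD99 day 7 arrays, and all 5 were detected on both Sa/CD99 day 14 arrays. In Saos-2 miR-149* and miR-125b-1* were on both day 14 arrays and the other 3 on 1. The scaled signal of miR-149* was 8.56 and 5.86 at day 14 in Sa/CD99 and 3.52 and 2.20 in Saos-2. In Sa/CD99 its difference from day 0 on the log2 scaled signal was at least 1.85, that of miR-125b-2* at least 2.20, that of miR-30c-2* at least 1.68 and that of miR-23a* at least 1.21. These 4 had passed the filter through day 14 groups alone, so the values are a description. On the deposited scale all 4 stood lower, because of the limit of the day 0 arrays, and no direction is given.

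**Figure D4:**
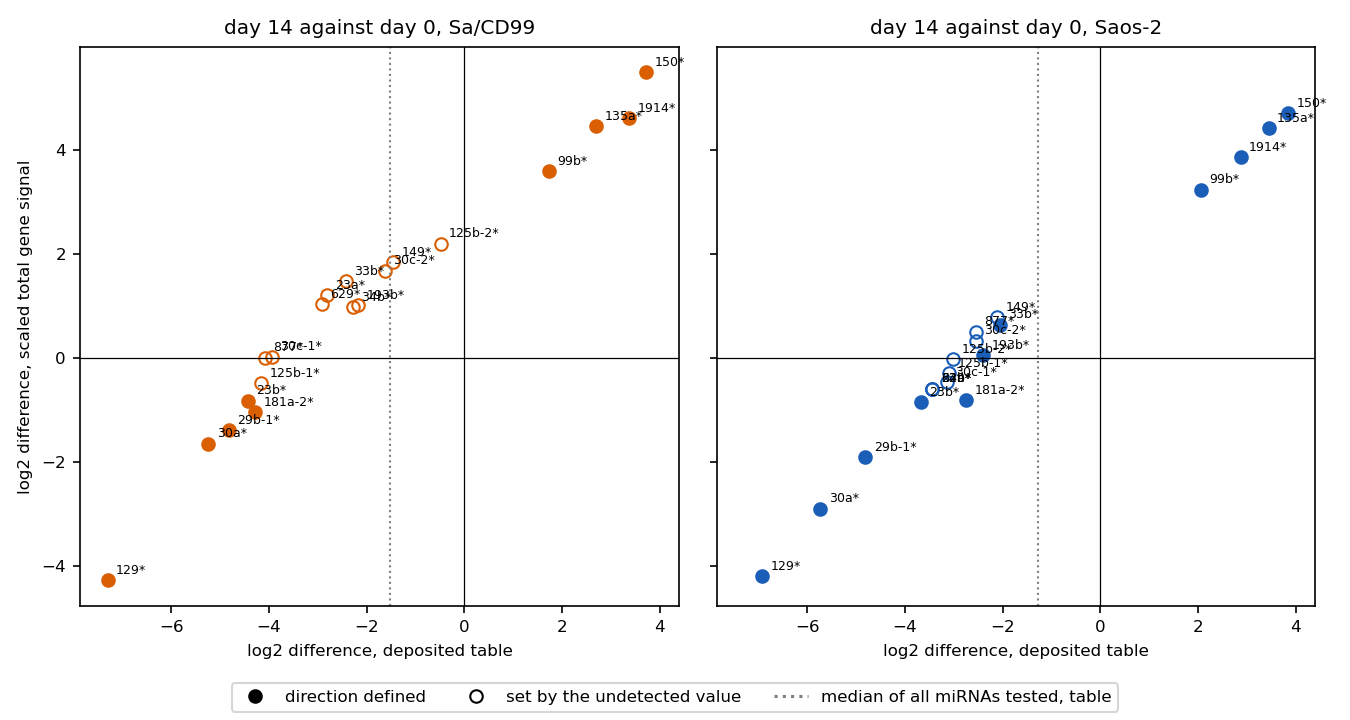
Log2 difference between day 14 and day 0 of the 20 tested star strands in Sa/CD99 (left) and Saos-2 (right), on the deposited scale (horizontal axis) and on the scaled signal (vertical axis), with open circles where the limit of detection sets the direction and a dotted line at the median of all tested miRNAs on the deposited scale. On both scales miR-129* is the lowest and miR-150* the highest, and the strands in the upper left change sign between the scales.

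Comparisons of days within 1 slide were possible for Saos-2 between days 7 and 0 and for Sa/CD99 between days 14 and 7. They were added after the values had been seen. In Saos-2, on slide 1, 14 of the 20 star strands passed an adjusted p of 0.05 on the deposited scale (46.6% of all tested miRNAs). The limit of detection set the direction of 6 of the 14, 1 of which was undetected on all 4 arrays compared, and of the remaining calls 3 were higher and 5 lower at day 7, with miR-23b* among the 5. By the scaled signal 4 were called (26.7%). These 4 were miR-150*, miR-135a* and miR-1914*, which were higher at day 7, and miR-129*, which was lower. The first 2 were undetected at day 0, and their differences are against that limit. The scaled log2 differences of the 4 were 4.10 (SE 0.41, adjusted p = 2.12e-05), 3.67 (SE 0.47, adjusted p = 9.94e-05), 3.82 (SE 0.71, adjusted p = 0.00142) and -2.66 (SE 0.46, adjusted p = 0.000832). In Sa/CD99, on slide 2, 3 were called on the deposited scale (7.31%), namely miR-129*, miR-181a-2* and miR-29b-1*, all lower at day 14 and none with its direction set by the limit. On the scaled signal 7 were called (26.3%), with miR-129* lower (log2 difference of -1.61 against the limit of day 14, SE 0.46, adjusted p = 0.024) and miR-150* higher by 1.72 (SE 0.41, adjusted p = 0.0148). The others were miR-149*, miR-125b-2*, miR-23a*, miR-30c-2* and miR-629*, all undetected at day 7 and detected on both day 14 arrays. These 5 had passed the filter through day 14 groups alone, so their calls followed in part from it. The other strands called on both scales in both cell types gave fewer calls within a slide on the scaled signal. miR-135a* and miR-1914* were called in Saos-2 only, and stood at 1.24 (adjusted p = 0.0842) and 1.69 (adjusted p = 0.126) in Sa/CD99. miR-30a* was called in neither, at -0.97 (adjusted p = 0.234) in Saos-2 and 0.092 (adjusted p = 0.979) in Sa/CD99. Nor was miR-29b-1*, at -0.77 (adjusted p = 0.224) and -0.53 (adjusted p = 0.496).

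Between the cell types few star strands differed. At a p of 0.01 and a 1.4-fold difference, 0 of 20 were called at day 0 (0% of all tested miRNAs), 0 at day 7 (2.74%) and 1 at day 14 (7.76%). At an adjusted p of 0.05 the counts were also 0, 0 and 1 (0%, 0.913% and 4.57%), and at an unadjusted p of 0.05 limma gave 0, 0 and 3 (1.37%, 5.48% and 16.9%). Without Saos-2 day 7 replicate 1, the array of lower signal, 9 of 25 were called at day 7 (16.2%), not split by the limit of detection, and without replicate 2 it was 1 of 20 (1.82%). At day 14 the count was 3 of 23 without Saos-2 day 14 replicate 1 (16.1%), with miR-181a* and miR-181a-2* added, and 2 of 23 without Sa/CD99 day 14 clone 22 (4.82%), with miR-34b* added. With the replicate number as a block 2 of 20 were called at day 14 (14.6%), miR-125b-2* and miR-30c-2*, both of which had passed the filter through Sa/CD99 day 14 alone. The strand called at day 14 was miR-125b-2*, whose guide is known to restrain osteoblast differentiation. Its log2 values were 2.50 and 0.93 in Sa/CD99, and -1.04 on 1 array and none on the other in Saos-2, so that the cell types did not overlap. Since it passed the filter through Sa/CD99 day 14 alone, its difference is a description: 3.35 on the deposited log2 scale, 2.51 on the scaled one, 0.11 in the scanner arrays normalized anew from spot signals under the table's labels, and 0.054 with a common floor for all arrays. With no filter it was still called by the p of 0.01 and the 1.4-fold difference, 1 of 162 star strands beside 1.06% of all 851 miRNAs, at an adjusted p of 0.327. At other days it was detected on 1 array, the Saos-2 day 7 array of high total signal. On the scaled signal 4 were called at day 14 (10.6%; 10.1% for higher), all higher in Sa/CD99: miR-125b-2*, miR-149*, miR-23a* and miR-629*. All but miR-149* had passed the filter through Sa/CD99 day 14 alone, and miR-23a* and miR-629* were undetected in Saos-2 at that day. miR-150* and miR-1914* were higher in Sa/CD99 at day 14 by 0.70 (SE 0.51) and 0.92 (SE 0.64) on the deposited log2 scale and did not pass the threshold (adjusted p = 0.457 and 0.439). In the arrays normalized anew they were higher by 0.34 and 0.51 (adjusted p = 0.0499 for each), and miR-1914* alone of the 20 was called there (0.922%).

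Over all days 0 of 20 were called (0%). With the scanner arrays as filed 4 of 18 were called (25.6%), miR-135a*, miR-150* and miR-99b* lower in Sa/CD99 and miR-30a* higher. At an unadjusted p of 0.05 the table gave 3 (16.4%). These were miR-125b-2*, miR-34b* and miR-99b*, each with a higher mean in Sa/CD99. The first 2 had passed the filter through a Sa/CD99 group alone, and for miR-99b* the adjusted p was 0.294. The unadjusted count of 3 moved both up and down when single arrays were left out. A test of whether the cell types changed unequally over the days called 0 of 20 (1.83% of all tested miRNAs). By an unadjusted p of 0.05 (8.68%) it gave 1, miR-125b-2*, which the filter had kept through Sa/CD99 day 14 alone. Leaving out either Saos-2 day 7 array raised this unadjusted count. miR-34b*, the star of a family induced by p53, was detected in Sa/CD99 on both day 7 arrays at 0.49 and 2.56 and on 1 day 14 array at 1.44, and in Saos-2 on 1 day 7 array at -0.68. Its guide miR-34b was detected on no array.

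The next question was whether a star strand moved with its guide. Only 1 star pair, miR-181a-2* with miR-181a, was detected in both strands on all 12 arrays, 2 such arm pairs being present in all. The guide miR-181a is also made from the precursor of miR-181a*, so that the pair does not stand for a single hairpin. The change of star minus guide between day 14 and day 0 was -2.81 in Sa/CD99 (adjusted p = 0.0038) and -2.01 in Saos-2 (adjusted p = 0.0228) on the deposited scale, where 1 of the 2 pairs (50%) was called in each. On the scaled signal it was -0.47 and -0.80 and was not called. In the scanner arrays normalized anew under the table's labels the sign turned, to 0.54 in Sa/CD99 (adjusted p = 0.0505) and 0.13 in Saos-2 (adjusted p = 0.917). The Saos-2 call was also lost without any of 4 arrays, Sa/CD99 day 0 clone 22, Saos-2 day 0 replicate 1 and both of Saos-2 day 14. Over 22 arm pairs of which each arm was detected in both samples of some group, a set added after the values had been seen, 12 were pairs of a star strand. Of these 7 were called in Sa/CD99 (59.1% of the arm pairs) and 2 in Saos-2 (22.7%) on the deposited scale, and 9 (54.5%) and 4 (31.8%) on the scaled signal. In this set miR-181a-2* with miR-181a had an adjusted p of 0.0675 in Saos-2 on the deposited scale. The calls include pairs whose star had passed the filter through day 14 groups alone or, for miR-23b*, through day 0 groups alone. In 2 pairs, miR-99b and miR-30a, the call was made in both cell types and on both scales.

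miR-99b* and miR-99b moved apart. The scaled signal of the guide was 36.7 and 37.8 at day 0, 22.2 and 21.1 at day 7 and 18.1 and 17.5 at day 14 in Sa/CD99, and 35.5 and 45.1, 20.4 and 21.6, and 18.1 and 19.1 in Saos-2. Every later value of the guide was below every day 0 value, in contrast to the star. The guide differed by -1.07 (SE 0.32, adjusted p = 0.0164) and -1.10 (SE 0.32, adjusted p = 0.0164) on the log2 scaled signal. The change of star minus guide was at least 4.66 (SE 0.73, adjusted p = 0.000557) in Sa/CD99 and at least 4.35 (SE 0.73, adjusted p = 0.00153) in Saos-2. On the deposited scale it was at least 4.22 (adjusted p = 0.00407) and 3.83 (adjusted p = 0.0102). The strands are shown with their seeds in capitals because they share a hairpin and no seed.
miR-99b*: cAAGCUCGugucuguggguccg
miR-99b: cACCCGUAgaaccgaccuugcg

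In Sa/CD99 miR-149* was detected at day 14 alone, where its guide was lowest. The guide had a scaled signal of 39.8 and 46.0 at day 0, 10.8 and 11.8 at day 7 and 7.55 and 6.61 at day 14 in Sa/CD99, and of 44.7 and 42.2, 18.1 and 11.4, and 11.9 and 12.02 in Saos-2. It was highest at day 0 in both cell types, when the star was undetected. The change of star minus guide was at least 4.45 in Sa/CD99 and at least 2.65 in Saos-2 on the scaled log2 signal, and at least 3.57 and 0.60 on the deposited scale. miR-125b-2* against miR-125b stood at least 2.46 higher on the deposited and 4.25 on the scaled log2 scale in Sa/CD99. Both stars had passed the filter through day 14 groups alone, so these changes are a description. The difference between the cell types was not tested. The guide miR-125b is also made from the precursor of miR-125b-1*, so that these pairs share 1 guide.
miR-149*: aGGGAGGGacgggggcugugc
miR-149: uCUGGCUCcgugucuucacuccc
miR-125b-2*: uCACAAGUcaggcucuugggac
miR-125b: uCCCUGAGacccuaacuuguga

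miR-30a* fell relative to its guide. The scaled signal of miR-30a was 35.5 and 42.5 at day 0, 31.4 and 30.5 at day 7 and 31.9 and 29.2 at day 14 in Sa/CD99, and 44.1 and 75.4, 38.9 and 48.7, and 32.4 and 33.4 in Saos-2. The guide differed by -0.35 (SE 0.36) and -0.81 (SE 0.36) on that log2 scale and did not pass the threshold (adjusted p = 0.443 and 0.107). Star minus guide changed by -1.29 (SE 0.49, adjusted p = 0.0485) in Sa/CD99 and by -2.08 (SE 0.49, adjusted p = 0.00763) in Saos-2, with undetected stars at their limit. On the deposited scale the changes were -3.78 (adjusted p = 0.000997) and -4.17 (adjusted p = 0.000642).
miR-30a*: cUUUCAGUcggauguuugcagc
miR-30a: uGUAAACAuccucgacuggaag

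**Figure D5:**
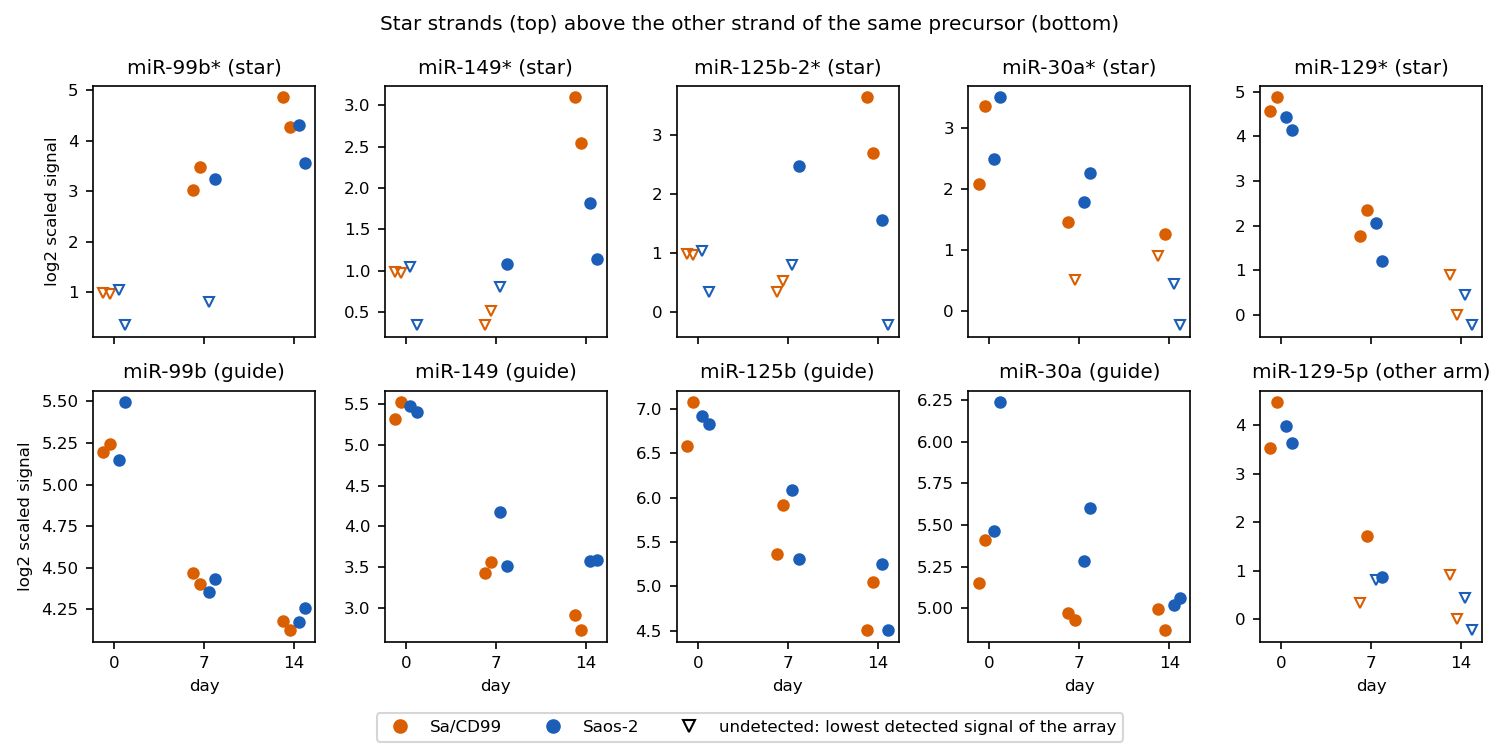
Scaled signal on a log2 scale (vertical axes, each with its own range) by day of 5 star strands (top) and of the other strand of the same precursor (bottom), 1 point per array, Sa/CD99 in orange and Saos-2 in blue, open triangles undetected at the lowest detected signal of the array. miR-99b* and miR-149* appear after day 0 while their guides are highest at day 0, and miR-129* and miR-129-5p are both undetected at day 14.

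For the other pairs the result turned on the scale or on the limit of detection. Against miR-23b, miR-23b* stood at -2.41 in Sa/CD99 on the deposited scale and at 0.36 on the scaled one, as a description of a strand that the filter kept through the day 0 groups. miR-23a*, with the same seed as miR-23b*, was higher against miR-23a by at least 2.53 on the scaled signal in Sa/CD99 and stood at -0.71 on the deposited one. miR-125b-1* turned from -1.22 to 1.56 in Sa/CD99 and from -0.45 to 1.71 in Saos-2. miR-23a* and miR-125b-1* had passed the filter through day 14 groups alone, as had miR-30c-2*, which stood at least 2.27 higher against its guide in Sa/CD99 on the scaled signal. miR-193b* was called against its guide in Sa/CD99 on the scaled signal alone, at 1.93 (adjusted p = 0.0155), with 1 day 0 array at its limit. miR-877* and miR-877 were both undetected at day 0, and no direction is given for their pair. Between the cell types, over all days, 0 of 12 star pairs was called on the deposited scale (0% of 22 pairs) and 1 on the scaled one (4.55%), miR-23a* against miR-23a, higher in Sa/CD99 by 0.84, with the star kept by the filter through Sa/CD99 day 14 alone. At an unadjusted p of 0.05 there were 4 on the deposited scale (18.2% of the 22 pairs), the pairs of miR-149*, miR-23a*, miR-30c-1* and miR-30c-2*. All but miR-149* had passed the filter through Sa/CD99 day 14 alone, and the last 2 share the guide miR-30c.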

How the data were processed

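Total RNA was labelled with Cy3 and hybridised to Agilent human miRNA arrays (version 3). The authors deposited quantile-normalized log2 values per miRNA, undetected ones at the column minimum, and per the file headers the spot and total gene signal intensity written by Agilent Feature Extraction. RMA is named in the submitters' processing notes. Groups followed the table's column labels; slides came from the matching scanner arrays. Of the per-sample columns 0 were left unused. Undetected values were set to the lowest detected value of their array. One limma fit of the 6 groups (limma 3.58.1, R 4.3.3; 6 residual degrees of freedom before moderation) gave all tests, with Benjamini-Hochberg adjustment over all tested miRNAs. Cell types at 1 day were called at p of at most 0.01 and 1.4-fold, other comparisons at an adjusted p of at most 0.05. Arm pairs were tested on log2 star minus log2 guide within an array, adjusted over the pairs. Raising undetected values leaves a difference without direction where the limit of an array lies above detected values of the other group; such calls were counted for the deposited values of all 12 arrays. "At least" marks folds against that limit.

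Strands were named by rule: the 5 largest calls per comparison without overlap, those on all 12 arrays, those on at least 6 arrays with an undetected guide, the 5 pairs with the largest change, and listed families; other names were chosen after their values were seen. Members and lists were chosen with earlier results of these data known. Alternatives were the scanner arrays as filed or relabelled (normexp, offset 50, quantile normalization, median polish), other scaling, filters and floors, a replicate block, a slide block and leaving out each array. The scaled signal, a common floor, the wider pair sets and the within-slide contrasts were added after seeing the data. Clones pair the Sa/CD99 samples, each clone being 1 cell line; deviations of same-numbered samples correlated at 0.0586 to 0.289 in Sa/CD99 and at 0.16 to 0.544 in Saos-2. Scripts (Python 3.11.15, pandas 2.3.3, numpy 2.4.6, matplotlib 3.10.9) were tested on simulated data. The number of arrays limits the precision.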

Additional observations from a re-analysis of the deposited data

How the results depend on the processing

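With the scanner arrays as filed, 0 of 18 star strands were called between day 14 and day 0 in each cell type (0% of all tested miRNAs, as each share in brackets below), 0 between the cell types at day 14 (2.37%) and 4 over all days (25.6%), and differences turned sign: miR-125b-2* at day 14 was -0.038; in Sa/CD99 miR-129* was 0.24, miR-135a* -0.092, miR-150* -0.27, miR-181a-2* 0.13, miR-1914* -0.36, miR-23b* 0.034, miR-29b-1* 0.054 and miR-30a* 0.18; in Saos-2 miR-129* was 0.0066, miR-135a* -0.070, miR-150* -0.32, miR-181a-2* 0.063, miR-1914* -0.46, miR-23b* 0.0074, miR-30a* 0.049 and miR-99b* -0.12. Day 14 against day 0 gave 157 calls in Sa/CD99 (88.6%) and 161 in Saos-2 (87%) of 162 without a filter, because star strands undetected on every array then differ by the limits alone, 2 of 2 in each over strands on all 12 arrays (82% and 64%), with 0 between the cell types at day 14 (7%), and 8 and 8 of 20 with a common floor (63% and 48.4%), with 0 at day 14 (5.94%), where miR-23b* in Saos-2 was 0. In Saos-2 the count was 10 with relabelled arrays, with or without background correction (53% and 54.8%), 10 with values as deposited (55.7%) and 7 on the scaled signal (35.9%). Between the cell types there was 1 at day 0 on relabelled arrays without background correction (0.461%), and at day 14 there were 3 with values as deposited (9.13%) and 4 on the scaled signal (10.6%). The interaction gave 1 with values as deposited (1.83%). The replicate block gave 2 at day 14 (14.6%), 18 in Sa/CD99 (81.3%) and 20 in Saos-2 (70.8%), and moved no other count of calls by over 1.5 times. At an unadjusted p of 0.05 it gave 6 at day 14 (28.3%), 6 over all days (28.8%) and 2 for the interaction (11%). Counts of star pairs called between day 14 and day 0 were 0 in each cell type with the arrays as filed, relabelled, without background correction or scaled (0% of 2 arm pairs in each), or scaled with both arms on all arrays compared (16.7% of 6 arm pairs in Sa/CD99 and 25% of 4 in Saos-2). For miR-181a-2* against miR-181a the difference turned sign on relabelled arrays, to 0.54 and 0.13, and without background correction to 0.57 and 0.082. Of 12 star pairs in the wider set 7 and 2 were called (59.1% and 22.7% of 22 arm pairs), and 9 and 4 on its scaled signal (54.5% and 31.8%), with 1 over all days (4.55%). With the arrays as filed, cell type and slide cannot be told apart. The cause of these changes, the filter apart, was not tested.

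Leaving out each array in turn, with 20 to 25 star strands tested, gave 12 to 23 calls in Sa/CD99, beside 53.6% to 80.1% of all tested miRNAs (23 without Saos-2 day 7 replicate 1), 11 to 24 in Saos-2, beside 37.3% to 69.7% (11 without Saos-2 day 0 replicate 1), 1 to 3 at day 14, beside 3.15% to 16.1% (2 without Sa/CD99 day 14 clone 22, 3 without Saos-2 day 14 replicate 1), 0 to 9 at day 7, beside 1.36% to 16.2% (9 without Saos-2 day 7 replicate 1) and 0 to 1 star pairs in Saos-2, beside 0% to 66.7% of 2 to 4 arm pairs. It was 0 without Saos-2 day 0 replicate 1 (25% of 4) and without Sa/CD99 day 0 clone 22 or either Saos-2 day 14 array (0% in each). The lone array left in a group was assumed to vary like the other groups. Under the slide block the correlation within slides was 0, and it cannot separate slide from day, as each group lies on 1 slide.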
